A study of Rattus norvegicus with 4 samples.

Results

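The genes described here act in fatty acid binding and lipolysis: the fatty acid-binding protein genes Fabp3, Fabp4, Fabp5 and Fabp7, the lipase genes Lpl and Lipe, and the lipase inhibitor gene G0s2. They were taken by gene symbol, and they are 7 of the 13811 genes that had a probe set of their own, control probe sets included, on the arrays of this series. The choice was made with the 3-NP against saline values of the same arrays known, so their differences are given as a description and support nothing by themselves. Each gene had 1 probe set on the day 1 array. The day 3 array, another design, carried 1 of the 7, Lipe, through a different probe set.

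The series measured gene expression in the rat cochlear lateral wall after 3-nitropropionic acid (3-NP), an inhibitor of succinate dehydrogenase in the mitochondrial respiratory chain. The 4 groups, of 1 array each, were 3-NP at day 1, saline at day 1, 3-NP at day 3 and saline at day 3. All arrays came from female Sprague-Dawley rats of 8 to 10 weeks and 180 to 210 g, whose left round window niche was infused and whose right cochlea was destroyed at surgery. The 3-NP solution was 300 mM by the sample titles, and the shared protocol also mentions 500 mM. One label field places the dissection in the upper basal turn, and another in the second turn with the stria vascularis removed. How many animals stood behind an array is unknown from the labels. With 1 array per group there is no replicate error, and no test or p-value was computed.

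Long-chain fatty acids are poorly soluble and move through the cytoplasm bound to small carrier proteins of the FABP family. Lipoprotein lipase, the product of Lpl, releases fatty acids from circulating triglycerides at the capillary wall. Inside cells, adipose triglyceride lipase (Pnpla2), hormone-sensitive lipase (Lipe) and monoglyceride lipase (Mgll) act in turn on stored triglyceride, and the small protein encoded by G0s2 inhibits the first of them. The lateral wall holds spiral ligament fibrocytes, stria, blood vessels and pigment cells.

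At day 1 the genes went apart. Fabp5 stood far higher in the 3-NP array, G0s2 stood far lower, and Lpl was lower by a smaller margin. Fabp3 had nearly the same deposited signal in both arrays. Fabp7, Lipe and Fabp4 were dim, with signals near or below the level used as a floor.

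Signals are MAS5 intensities per probe set, as deposited. The median signal of the day 1 pair was 60.7 in 3-NP and 44.9 in saline, so ratios are given relative to the median gene. That gene had log2 ratios (3-NP over saline) of 0.44 on the day 1 arrays and 0.10 on the day 3 arrays. Signals below the 30th percentile of an array were set to it. This floor was 22.0 in 3-NP and 17.1 in saline at day 1, and 9.85 in 3-NP and 9.22 in saline at day 3. A gene was counted when its signal reached the 50th percentile in at least 1 array of its day, and called higher or lower when 2-fold apart, a relative log2 ratio of 1. On the day 1 arrays 6533 genes passed and on the day 3 arrays 3972. Probe sets of the same gene scattered with an SD of 0.35 log2 units per probe set on day 1 and 0.47 on day 3. This spread covers probe sets only, not animals or dissections.

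Of the 7 genes, 4 passed the filter at day 1. Of these 4, 1 was at least 2-fold higher in 3-NP and 2 were lower. Among all genes that passed, 7.76% were higher, 6.47% were lower and 14.2% were 2-fold apart either way. As deposited, without centring, 1 of the 4 was higher and 1 lower. The background was then 17.9% higher, 2.62% lower and 20.5% either way, and higher genes made up 87.2% of those 2-fold apart, against 54.5% relative to the median gene. Because the genes were picked from this contrast, nothing is read from their counts.

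**Figure D1:**
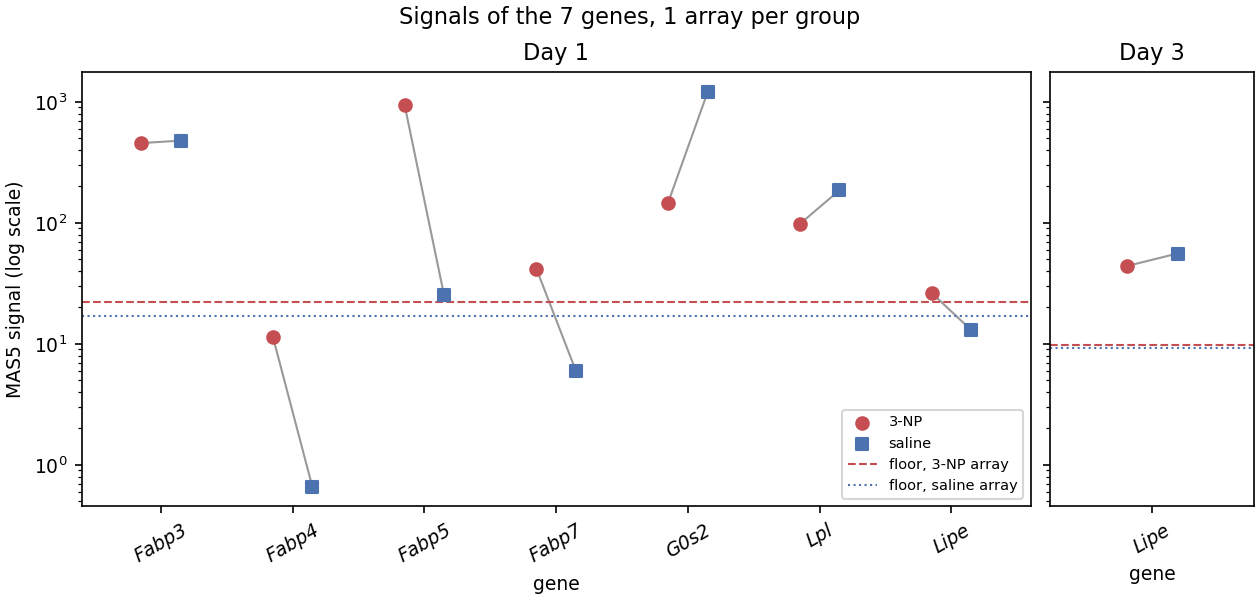
MAS5 signal (log axis) of the 7 genes at day 1 and of Lipe at day 3, with 3-NP (red circles) left of saline (blue squares), 1 array each, and the floor of each array as a horizontal line. Fabp5 and G0s2 are the pairs of points furthest apart among those above the floors, in opposite directions, and both Fabp4 points lie below the floors.

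Fabp5 encodes the epidermal fatty acid-binding protein, first known from skin and also present in endothelium, macrophages and nerve. Its signal was 944 in the 3-NP array, at the 96.9th percentile of that array, and 25.1 in the saline array, at the 37.5th percentile. Relative to the median gene it was 27.8-fold higher in 3-NP, a log2 ratio of 4.80, or 5.24 as deposited. It ranked 7 from the top of the 6533 genes. The saline signal lay only a little above the floor of 17.1, so the size of this ratio depends on a dim value. RefSeq lists 2 pseudogenes of Fabp5 in the rat, and whether their transcripts reach this probe set was not tested.

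Fabp3 encodes the heart-type protein of muscle and other fatty acid-burning tissues. Its signal was 456 in 3-NP and 478 in saline at day 1, bright in both arrays. Its relative log2 ratio was -0.51, while the deposited ratio was -0.07, so the difference is mostly the shift of the median gene.

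Fabp7, the brain-type protein of radial glia and Schwann cell precursors, had 41.8 in 3-NP and 5.98 in saline. Only the 3-NP signal was above the floor, and neither reached the middle of its array. Against the floor, Fabp7 was at least 1.80-fold higher in 3-NP relative to the median gene, and at least 2.44-fold as deposited. Fabp4, the protein of adipocytes, capillary endothelium and macrophages, had 11.5 in 3-NP and 0.660 in saline. Both values lie below the floors, so no fold is given for it.

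The other genes of the intracellular lipid-binding protein family, which also includes the retinoid carriers, were mostly dim. Of 9 on the day 1 array, 8 were below the floor in both arrays, among them Fabp1, Fabp2, Fabp6, Fabp9 and Fabp12. The exception was Crabp2, which encodes a carrier that brings retinoic acid to its nuclear receptors. Crabp2 had 635 in 3-NP and 126 in saline, a relative log2 ratio of 1.89. Pmp2, the myelin member of the family, was on the day 3 array and had 30.6 in 3-NP and 11.4 in saline, a relative log2 ratio of 1.32.

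In the rat RefSeq annotation, Fabp12, Fabp4, Fabp9, Pmp2 and Fabp5 lie next to each other in that order, and the next genes beyond Fabp5 are Pag1, Zfp704, Zbtb10 and Tpd52. These neighbours were examined after the values were seen. Fabp12, Fabp4, Fabp9, Pag1 and Zbtb10 were at the floor in both day 1 arrays. Zfp704 was below the filter, with 28.3 in 3-NP and 39.6 in saline. Tpd52 passed it, with 270.1 in 3-NP and 178 in saline and a relative log2 ratio of 0.16. Neither of these, the only neighbours with a ratio at day 1, was 2-fold higher in 3-NP. Next to Lpl, Ints10 was at 0.15, next to Fabp3, Serinc2 was at 0.30, and next to Fabp7, Smpdl3a was at -1.63 (89.9 in 3-NP and 205 in saline).

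G0s2 encodes a small inhibitor of adipose triglyceride lipase. Its signal was 147 in the 3-NP array and 1206 in the saline array, where it stood at the 98.5th percentile of all probe sets. Relative to the median gene it was 11.1-fold lower in 3-NP, a log2 ratio of -3.48, and 8.22-fold lower as deposited. It was the gene ranked 3 from the bottom of the 6533. In tissue RNA of this kind, fewer cells that use a gene and less of its RNA in each cell cannot be told apart.

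The 250 bases before the annotated start of G0s2 are shown because this gene had the lowest ratio of the 7. The sequence is from RefSeq, build GRCr8, chr13:107335949-107336198, minus strand, written 5′ to 3′ on the strand of the gene. Of the 7 genes, 3 had an entry in the promoter table. Capitals mark the match to the GC box GGGCGG, read on the opposite strand.
G0s2: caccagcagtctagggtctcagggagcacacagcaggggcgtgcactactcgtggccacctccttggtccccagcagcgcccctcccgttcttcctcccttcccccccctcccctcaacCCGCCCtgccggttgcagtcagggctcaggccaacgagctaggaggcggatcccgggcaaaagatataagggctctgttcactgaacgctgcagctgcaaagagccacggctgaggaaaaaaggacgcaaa

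The window holds 62.8% G and C, against a median of 51.2% over the same windows of 33469 RefSeq genes. Its GC box begins 131 bases before the start, and 30.5% of all windows hold at least 1. On either strand the window has no match to the TATA box form TATAAA (in 12.9% of all windows) or the CCAAT box CCAAT (34.0%). It also has no match to the E-box form CACGTG (5.59%) or the C/EBP motif form TTGCNNAA (9.22%). Other forms of these motifs were not searched, and the window printed above contains the letters TATAAG and CAGCTG. Of the hypoxia response core, only the form ACGTG (16.6%), which lies within the E-box, was searched, and the window lacks it. The form GCGTG was not searched, and the window printed above contains these letters. These matches are letters in a window and were not measured as binding sites.

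The genes next to G0s2 were also examined after the values were seen. Hsd11b1, on one side, encodes the enzyme that regenerates active glucocorticoid. It had 592 in 3-NP and 1649 in saline at day 1, a relative log2 ratio of -1.92. Lamb3, on the other side, encodes a laminin chain of epithelial basement membrane. It was measured at day 3 only, with 438 in 3-NP and 994 in saline and a ratio of -1.28. Camk1g, beyond Lamb3, was below the filter at day 1 and had 33.7 in 3-NP and 114 in saline at day 3, a ratio of -1.86. The next gene, Plxna2, did not share this side at day 3, at 0.56. Of C13h1orf74 and Traf3ip3, beyond Hsd11b1, both measured at day 3 only, the first was at 0.31 and the other at the floor in both arrays.

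**Figure D2:**
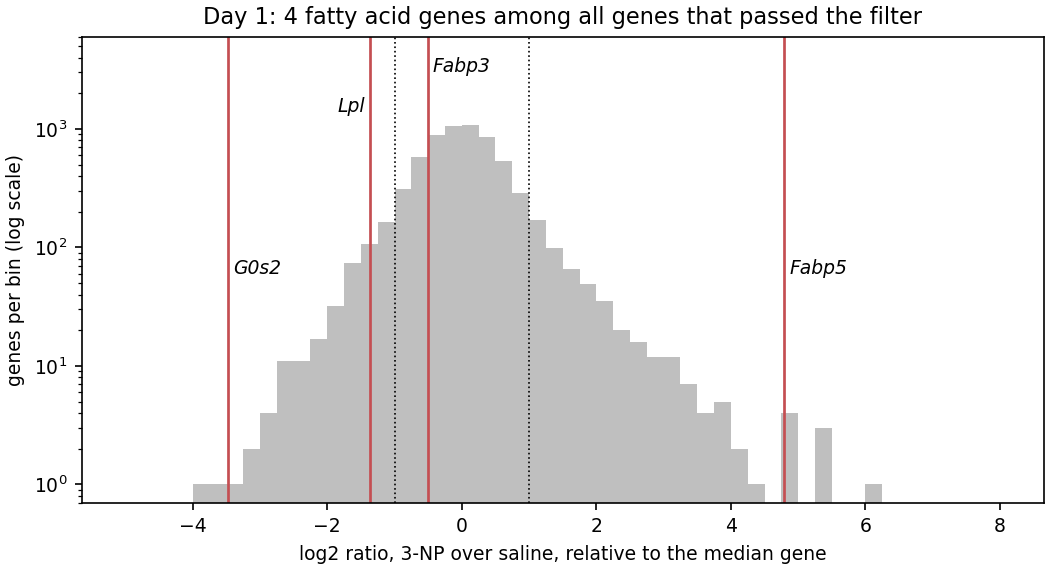
Relative log2 ratios of 3-NP over saline at day 1 for the 6533 genes that passed the filter (grey bars, log axis of gene counts), with the 4 described genes that passed as red lines and 2-fold differences as dotted lines. G0s2 (-3.48) and Fabp5 (4.80) lie in the far tails, Lpl (-1.36) just beyond the dotted line and Fabp3 (-0.51) inside it.

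The genes closest to Fabp5 over the 2 log2 signals of day 1 were Slpi, Ifit3 and Ccl2. Slpi, a secreted protease inhibitor gene, had 915 in 3-NP and 21.7 in saline, a distance of 0.21 log2 units. Ifit3, an interferon-induced antiviral gene, and Ccl2, a monocyte-attracting chemokine gene, were at distances of 0.56 and 0.65, and the saline signal of Ccl2 was at the floor. The closest to G0s2 were Car3 and Car14, which encode carbonic anhydrases, and Mapk4, which encodes an atypical MAP kinase. Their distances were 0.64, 0.67 and 0.69, and their relative log2 ratios were -2.57, -2.62 and -2.51. These are distances over 2 arrays and say nothing of shared control.

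Lpl had a signal of 98.0 in the 3-NP array and 186 in the saline array at day 1. Relative to the median gene it was 2.57-fold lower, a log2 ratio of -1.36. As deposited it was 1.89-fold lower (-0.92), under the 2-fold line. Lpl ranked 209 from the bottom.

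Lipe had 26.3 in 3-NP and 13.0 in saline at day 1, dim in both, with the saline value below the floor. Against the floor it was at least 1.13-fold higher in 3-NP relative to the median gene. At day 3 its other probe set had 43.9 in 3-NP and 55.8 in saline, both above the middle of their arrays. The relative log2 ratio was -0.44, smaller in size than the probe set SD of 0.47 on that array. Lipe, the 1 gene of the 7 measured at day 3, was not 2-fold apart. Of all genes that passed there, 9.21% were higher, 8.18% lower and 17.4% either way, or 10.9%, 6.42% and 17.3% as deposited. The genes closest to Lipe at day 3 were Pigv, Smyd3 and Orc4, at ratios of -0.43, -0.49 and -0.49.

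The partners of these genes in fatty acid metabolism were described through 9 lists, which share some genes. Together they hold 141 genes, of which 119 were on the day 1 array and 70 passed its filter. Of these 70, 9 were at least 2-fold higher in 3-NP and 6 lower, or 21.4% against 14.2% of all genes. As deposited, 16 of the 70 were higher and 2 lower, where 17.9% of all genes were higher and 2.62% lower. The median over the 70 was -0.02, that is, at the median gene.

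Among 8 measured genes of intracellular lipolysis, 2 were higher, 0 were lower and the median was 0.28. Hilpda encodes a hypoxia-induced lipid droplet protein that, like the product of G0s2, inhibits adipose triglyceride lipase. It was 3.03-fold higher in 3-NP, where its signal was 206, on the opposite side from G0s2. Npr1, the natriuretic peptide receptor gene, was at 1.13. Pnpla2, the lipase gene itself, had 135 in 3-NP and 88.6 in saline and was at 0.16. For Mgll the probe sets disagreed. The brightest was at -0.07, and 2 others that passed were at -1.53 and -1.70, values noticed after the data were seen.

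Of 8 measured genes that act with or on lipoprotein lipase, 1 was higher and 1 was lower, with a median of -0.45. Angptl4, a secreted inhibitor of lipoprotein lipase, had 125 in 3-NP and 34.2 in saline, a relative log2 ratio of 1.43. Pcsk6, a proprotein convertase gene, had 81.8 in 3-NP and 207 in saline, at -1.78. Gpihbp1, whose product carries lipoprotein lipase to the capillary surface, was at the floor in both arrays, as were Lipc, Angptl8, Apoc1 and Apoa5. Lpl and its inhibitor gene Angptl4 thus lay on opposite sides of the median gene.

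For fatty acid uptake and activation, 1 of 11 genes was higher and 2 were lower, with a median of 0.21. Scarb1, a lipoprotein receptor gene, had 159.9 in 3-NP and 33.7 in saline, at 1.81. Its dimmer probe set, with saline at the floor, gave at least 2.21 on the same scale. Acot13, a thioesterase gene, was at -1.54, and Acsl3, an acyl-CoA synthetase gene of lipid droplets, at -1.15 (-0.71 as deposited). Cd36, the fatty acid translocase gene, did not exceed the floor in either array.

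Among 7 lipid droplet genes, 1 was higher and 0 were lower, with a median of -0.38. That gene was Plin2, which encodes the main droplet coat protein outside adipose tissue. It had 371 in 3-NP and 92.9 in saline, a relative log2 ratio of 1.56, and a dimmer probe set gave 1.42. Plin1, the adipocyte coat protein gene, was at the floor in both arrays.

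In triglyceride synthesis, 1 of 11 genes was higher and 1 was lower, and the median was 0.19. Agpat2, an acyltransferase gene, was at 1.05 and Gpd1, which makes glycerol phosphate, at -1.09 (-0.65 as deposited). In fatty acid synthesis, 0 of 11 genes were higher and 2 were lower, and the median was -0.20. Scd, a fatty acid desaturase gene, had 167 in 3-NP and 296 in saline, at -1.27, and Thrsp, a lipogenesis regulator gene, was at -1.13. As deposited these were -0.83 and -0.69, under 2-fold.

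Of 7 transcription factor genes, 2 were higher and 0 lower, with a median of 0.35. Both encode CCAAT/enhancer-binding proteins of adipocyte differentiation and the acute phase response. Cebpb had 231 in 3-NP and 12.8 in saline, below the floor, and was at least 9.96-fold higher. Cebpd had 714 in 3-NP and 75.4 in saline, a relative log2 ratio of 2.81, and its next probe set gave 2.97. Ppard was at 0.19. Pparg did not pass the filter, with 33.2 in 3-NP and 6.05 in saline, and Ppara did not exceed the floor in either array. Of 9 other genes known as targets of the PPAR receptors, 2 were higher, Plin2 and Angptl4, and 0 lower, with a median of -0.28. As deposited 3 were higher, and the median was 0.15.

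**Figure D3:**
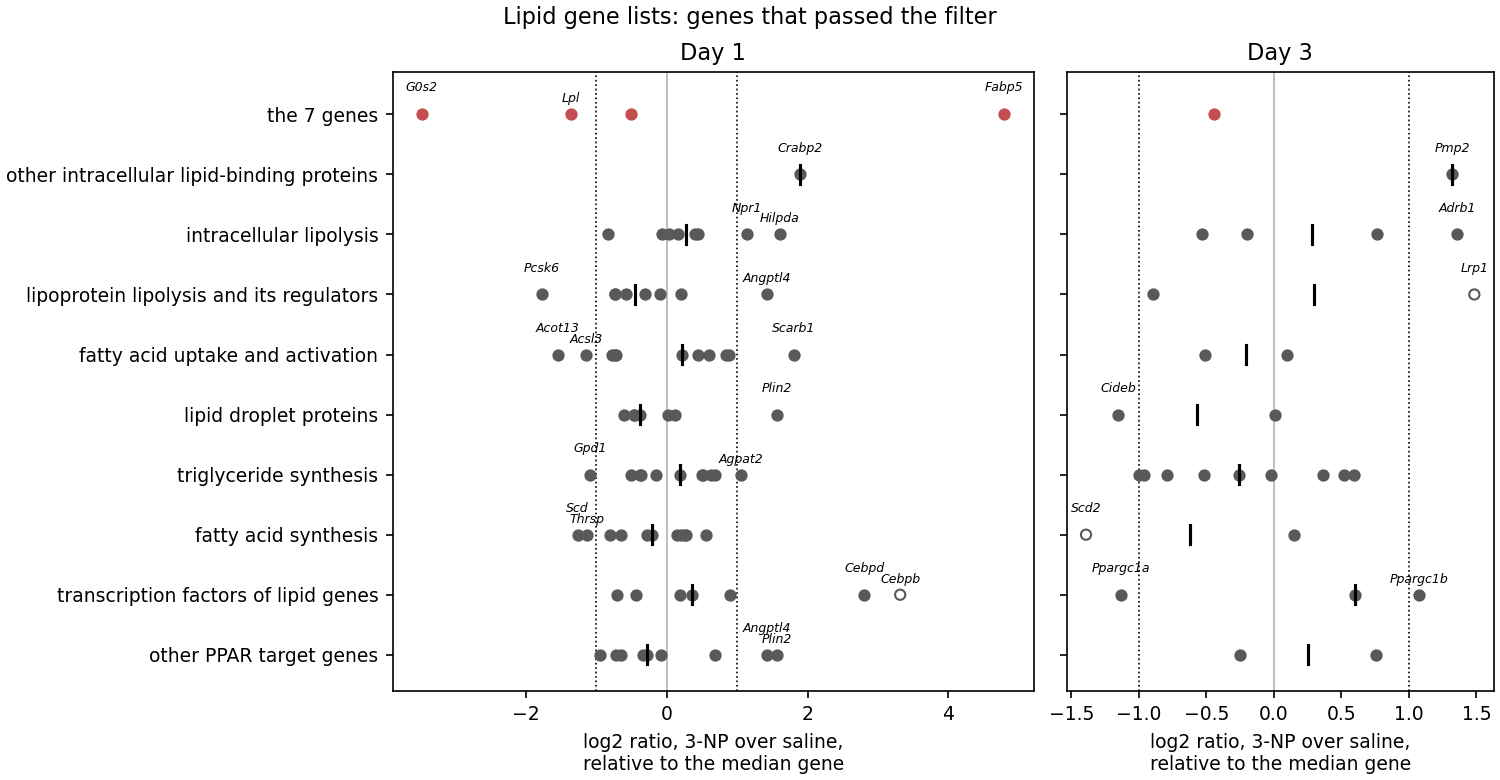
Relative log2 ratios of 3-NP over saline for genes that passed the filter at day 1 (left) and day 3 (right), with the 7 described genes on top in red, each list in grey, open circles for bounds, black ticks for list medians and dotted lines at 2-fold. Most grey points lie between the dotted lines, and the list medians lie within 1 log2 unit of the median gene except where a list has 1 gene.

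At day 3, 36 of the 141 genes were on the array and 27 passed. Of these 27, 4 were higher and 3 lower, or 25.9% against 17.4% of all genes, with a median of -0.02. Besides Pmp2, the higher genes were Adrb1, Ppargc1b (1.07) and Lrp1, at least 2.80-fold higher with saline at the floor. Adrb1, a beta-adrenergic receptor gene, was at 1.36, with 30.6 in 3-NP and a dim 11.1 in saline, only a little above the floor of 9.22. The lower genes were Ppargc1a, Cideb and Scd2. Ppargc1a, a coactivator gene of mitochondrial and fatty acid oxidation genes, had 122 in 3-NP and 249 in saline, at -1.13, and another probe set gave -1.40. Cideb was at -1.15 with dim signals, and Scd2 was at least 2.62-fold lower with 3-NP at the floor. Abhd5, whose product activates adipose triglyceride lipase, had 24.7 in 3-NP and 13.6 in saline, at 0.76. Gpam, an acyltransferase gene of triglyceride synthesis, had 16.0 in 3-NP and 29.7 in saline and was 1.99-fold lower. Pdk4, a kinase gene that spares glucose, was at 0.76, and Acot2, a thioesterase gene, at -0.51.

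Markers of cells that use these genes were set beside them at day 1, and their part in the differences was not tested. Of all genes that passed at day 1, 7.76% were higher and 6.47% lower, or 17.9% and 2.62% as deposited. The summed signals of marker lists are as deposited. No adipocyte marker of 9 on the array passed the filter, and 5 of them (Cfd, Lep, Plin1, Pck1 and Cebpa) were at the floor in both arrays. Beside Fabp5, 4 of 8 epithelial and keratinocyte markers were higher and 0 lower, with a median of 1.10 and summed signals of 7869 in 3-NP and 2865 in saline. Sfn was at 2.56, Epcam at 1.51 and Krt8 at 1.40. The keratinocyte keratin genes Krt14 and Krt15 were near the median gene, at 0.05 and -0.08, as was Cdh1 at 0.25, and Krt5 did not exceed the floor in either array. Endothelial markers had 5 of 9 higher and 0 lower, with a median of 1.04 and summed signals of 1579.7 in 3-NP and 803 in saline. Kdr was at 1.61, Mcam at least 3.57-fold higher (0.82 by a second, dimmer probe set) and Plvap at least 2.93-fold higher. Mcam and Plvap passed the filter only through the 3-NP array, with saline at the floor. Higher endothelial markers numbered 4 of 9 with the floor at the 40th percentile, and 3 of 7 with the filter at the 60th percentile. Cldn5 (182 in 3-NP and 230.0 in saline) and Emcn lay below the median gene, at -0.77 and -0.16.

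Of 10 macrophage markers 2 were higher and 0 lower, Lgals3 at 2.47 and Cd14 at 1.54, followed by C1qc at 0.56. The median was 0.40, the summed signals were 6795 in 3-NP and 3437 in saline, and Aif1, Itgam and Ptprc were at the floor in both arrays. Schwann cell and glial markers, beside Fabp7, had 2 of 7 higher and 0 lower, or 3 higher as deposited, with a median of 0.42. Gfap was at 3.55, with 298 in 3-NP and a dim 18.7 in saline, only a little above the floor of 17.1. Egr2 was at 1.53, and at -0.11 by a dim probe set at the floor in 3-NP, and S100b at -0.76. The summed signals of these 7 markers were 8021 in 3-NP and 6862 in saline as deposited. Relative to the median gene, the log2 ratio of these sums was -0.21, below it. Muscle markers, beside Fabp3, had 0 of 3 genes 2-fold apart, led by Myh2 at 0.61 and Myl1 at 0.31, with Myh1 at 0.09 (-0.16 to 0.67 over its 5 probe sets). Their summed signals were 680.3 in 3-NP and 444 in saline, and Acta1, Tnnt3, Mb and Actn3 were at the floor in both arrays. Of the neutrophil markers, S100a8 was at -0.65 and S100a9 at 0.34, and of the erythrocyte markers Hbb was at 0.53 and Alas2 at 0.74.

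Markers of spiral ligament fibrocytes and of stria and melanocytes stood on the side of G0s2 and Lpl, unlike the endothelial list above. Of 5 spiral ligament fibrocyte markers at day 1, 4 were lower and 0 higher, or 2 lower as deposited, with a median of -1.12 and summed signals of 4757 in 3-NP and 9392 in saline. Gjb6 was at -2.48, Car2 at -2.05 and Pou3f4 at -1.12. Of 6 stria and melanocyte markers 5 were lower and 0 higher, or 2 lower as deposited, with a median of -1.42 and summed signals of 1387 in 3-NP and 2785 in saline. Lrp2 was at -1.69, Kcne1 at -1.52 and Kcnq1 at -1.42, while Kcnj10 did not exceed the floor in either array. Stria genes were thus measured although one label has the stria removed. The part of these cells in the G0s2 and Lpl values was not tested. At day 3, Coch, the defining gene of spiral ligament fibrocytes, had 5677 in 3-NP and 6548 in saline.

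Beside Lipe at day 3 the marker lists held few measured genes. Tbx18, a fibrocyte gene, was at -1.19. Of 5 stria and melanocyte markers 3 were lower, with Bsnd at -1.93 and Tyr at -1.85, and 1 was higher, Tyrp1, at least 7.02-fold, although its other probe set gave 0.69. The macrophage genes Mrc1 and Cd163 were at -1.08 and -1.07 (0 lower as deposited), the endothelial gene Tek at -0.66, the neutrophil gene Csf3r at -0.29 and the glial gene Mbp at -0.05.

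**Figure D4:**
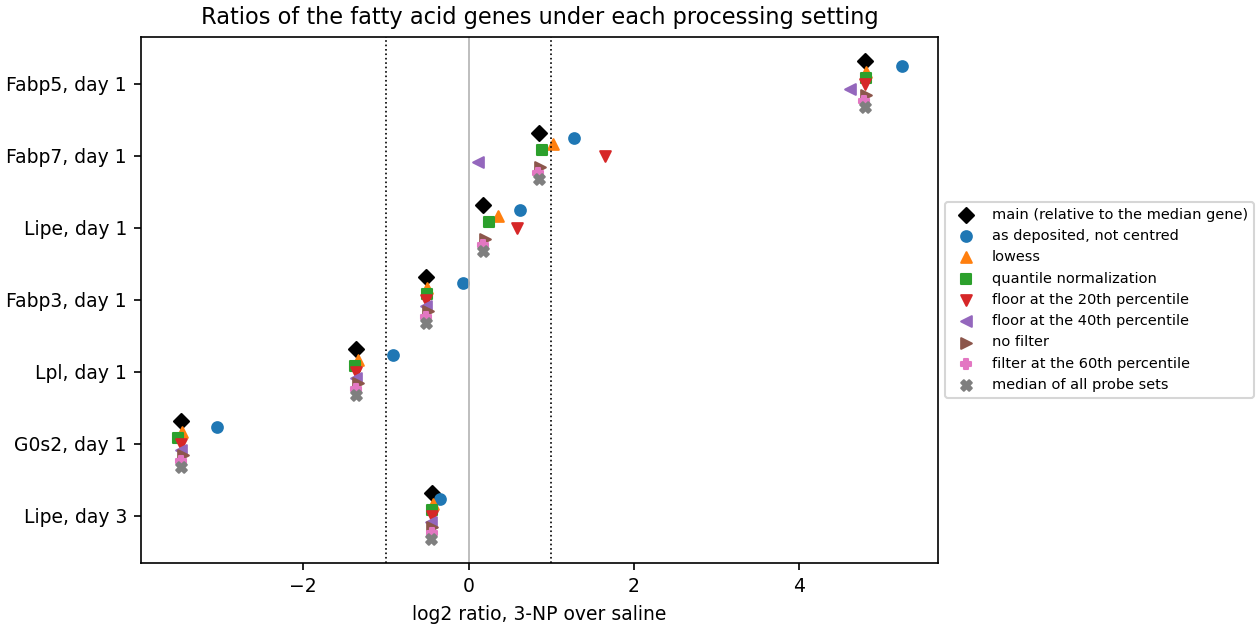
Log2 ratio of 3-NP over saline of each described gene with a signal above the floor, under the main processing (black diamonds) and 8 alternatives (coloured symbols), with dotted lines at 2-fold. Fabp5 and G0s2 stay beyond the dotted lines in all of them, Lpl falls inside only as deposited, and the dim Fabp7 spreads from 0.12 to 1.65.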

How the data were processed

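Signals of 4 arrays were used as deposited. Per the submitters' processing notes the authors computed them with MAS5. The deposited values are linear intensities, 1 per probe set. The sources used here do not give the scaling target or detection calls. Biotin-labelled cRNA came from 6 µg of total RNA, per the labels' protocols.

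The arrays of day 1 held 15923 probe sets and those of day 3, another design, held 15333, so days were not compared within a treatment. Genes were named by GEO's annotation of the platform and updated by gene identifier to RefSeq (GRCr8). At day 1, 12783 probe sets outside the 57 controls had 1 symbol, 312 several and 2771 none, and at day 3 the numbers were 7564, 100 and 7612. Of 10411 and 5667 genes named, 10378 and 5636 were in RefSeq.

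Log2 ratios of 3-NP over saline were taken after the 30th percentile floor and centred on the median gene that passed the 50th percentile filter. Where a gene had several probe sets, the one brightest on average (log2) stood for it. Python 3.11.15, pandas 2.3.3, numpy 2.4.6 and statsmodels 0.14.6 (lowess, fraction 0.3) were used, and the steps were tested on simulated data. No depth applies to arrays, and their number limits the precision. The alternatives were ratios as deposited, lowess, quantile normalization, floors at the 20th and 40th percentiles, no filter, a filter at the 60th percentile and the median over probe sets.

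The genes and lists were chosen with earlier results of these data known. The text names every probe set of the 7 genes. It also names up to 4 genes at least 2-fold apart per lipid list (otherwise the furthest from 0), the 3 furthest per marker list, and the 3 nearest in signal to the highest and lowest gene of the 7. Other names were added after values were seen, and these are the remaining genes within 2-fold, at the floor or below the filter, second probe sets and chromosomal neighbours.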

Additional observations from a re-analysis of the deposited data

Results flagged for a closer look

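Lipe, Lrp1 and Mbp lay on opposite sides of the median gene at the 2 days, and the difference between days was not tested, since there is 1 pair of arrays per day on different designs. For Lipe, day 3 minus day 1 was at most -0.63 on the log2 scale, a bound, from at least 0.18 at day 1, with the saline signal at the floor, and -0.44 at day 3. For Lrp1 it was at least 1.58, also a bound, from -0.10 at day 1 and at least 1.48 at day 3, and as deposited the day 1 value turned to 0.34. The Lrp1 probe set of day 1 was bright, with 679.6 in 3-NP and 536 in saline. That of day 3 was another and far dimmer, with 27.7 in 3-NP and 8.46 in saline, below the floor. For Mbp, day 3 minus day 1 was -0.73, from 0.69 at day 1 and -0.05 at day 3, which turned to 0.05 as deposited. Lipe and Mbp were also read by different probe sets on the 2 days.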

How the results depend on the processing

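No paired analysis was possible because each group holds 1 array and the labels give no replicate numbers. Fabp5, G0s2, Lpl and Fabp3 at day 1 and Lipe at day 3 kept their sign under all 8 alternatives. As deposited, the day 1 log2 ratios were 5.24 for Fabp5, -3.04 for G0s2, -0.92 for Lpl, -0.07 for Fabp3, and, as bounds, 1.28 for Fabp7 and 0.62 for Lipe. With the floor at the 20th percentile Fabp7 was at 1.65 (bound) and Lipe at 0.58. With the floor at the 40th percentile Fabp7 was at 0.12 (bound) and Fabp5 at 4.62 (bound), and Lipe had no value. The lowest and highest ratios over the settings were 4.62 and 5.24 for Fabp5, -3.52 and -3.04 for G0s2, and -1.37 and -0.92 for Lpl. The lipid lists had 15 to 18 genes 2-fold apart at day 1, against 15 as reported. At day 3 they had 4 in place of 7 with the floor at the 40th percentile, where Cideb, Lrp1 and Scd2 were under 2-fold. Of 15 named lipid genes at day 1, 11 stayed 2-fold apart in each setting that gave them a value, though Npr1 failed the filter at the 60th percentile, and Acsl3, Gpd1, Scd and Thrsp were under 2-fold as deposited. Dim signals limit Fabp7, Lipe and Fabp4.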
